A study of Mus musculus with 15 samples.

Results

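The 10 genes described here are Sardh, Ivd, Zfp275, Hdac11, Nrbp2, Arhgef26, Nsmf, Rnf128, Dpy19l3 and A530020G20Rik. They are 10 of 22180 mouse genes measured, and were chosen by the difference between heterozygous floxed Ctnnb1 tumors and wild-type tumors, as the genes for which it was seen most consistently. Their levels in those 2 genotypes are therefore given as a description with no test. The stated rule names no level in homozygous floxed tumors, although earlier results of these data, which included those tumors, were known when the genes were listed. RNA of 15 mammary tumors that arose in ErbB2KI mice, in which Erbb2 drives tumor growth, was hybridised to whole-transcript arrays, 1 array per tumor. The groups were tumors labelled Ctnnb1 fl/fl (HOM), Ctnnb1 fl/wt (HET) and Ctnnb1 wt/wt (WT), with 5 tumors each. All of them carried ErbB2KI and were taken at end burden, and the deletion of Ctnnb1 was aimed at the mammary epithelium. The sources used here give neither the Cre driver nor the ages. They do not say whether each tumor had a mouse of its own, so a p-value reflects only how far these tumors differ, which may be technical in part. Values are log2 array values, which compare a gene between tumors and not 1 gene with another, and are listed for tumors 1 to 5 of a genotype in that order.

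Ctnnb1 encodes beta-catenin, which links cadherins to the actin cytoskeleton at adherens junctions and acts with TCF/LEF factors in the nucleus as the effector of canonical Wnt signalling. The 10 genes belong to no common pathway. Sardh and Ivd encode mitochondrial dehydrogenases that hand electrons to the electron transfer flavoprotein (ETF). Zfp275 and Hdac11 encode a zinc finger protein and a histone deacetylase. Nrbp2, Arhgef26 and Nsmf encode signalling proteins, Rnf128 and Dpy19l3 encode membrane enzymes that modify other proteins, and A530020G20Rik is annotated as a long noncoding RNA. They lie on chromosomes 2, 3, 6, 7, 15 and X.

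The labels were checked first. Ctnnb1 was 11.48 ± 0.33 in HOM, 11.50 ± 0.19 in HET and 11.84 ± 0.39 in WT tumors (SD, n = 5 each), and no difference passed the test (limma, adjusted p = 0.983 for HOM against HET, 0.448 for HET against WT, and 1 for HOM against WT). The tumor labelled HOM 5 had 12.01, inside the range of WT 1 to WT 4, and the tumor labelled WT 5 had 11.21, inside the range of HOM 1 to HOM 4. Cdh19, the gene with the smallest p in HET against WT, placed these tumors otherwise. For it WT 5 had 7.48, inside the range of WT 1 to WT 4 (6.78 to 8.32). HOM 5 had 4.91, below HOM 1 to HOM 4 (5.30 to 6.93) and outside the WT range. Whether any label was exchanged was not tested. Directions that involve HOM or WT below rest on labels that include WT 5 and HOM 5. Erbb2 was 11.53 ± 1.04 in HOM, 12.70 ± 0.23 in HET and 11.11 ± 0.88 in WT tumors. No Erbb2 difference passed (limma, adjusted p = 0.224 for HET against WT and 0.587 for HOM against HET). Every HET tumor (lowest 12.39) nevertheless lay above every WT tumor (highest 11.85), which 0.534% of genes tested showed. Epithelial markers were present in every tumor, with list means of 10.49 to 11.30 in HOM, 8.23 to 11.56 in HET and 10.20 to 11.26 in WT. HET 1 had the lowest epithelial mean (8.23) and the highest B and plasma cell mean (10.36, against 5.18 to 5.96 in the other HET tumors). HET 3 had a skeletal muscle mean of 11.09, against 5.41 to 6.14 in the other HET tumors.

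The promoters of 7 of the 10 genes were found in a RefSeq table (build GRCm38.p6, 250 bases before to 50 after the start). The start used there is not always the outer end of the gene as given below. The Rnf128 window (139610370 to 139610669) lies inside the gene, which begins at 139563340. That of Sardh (27247254 to 27247553, minus strand) lies inside the gene end at 27248332, and the Hdac11 start used lies after 91156670. Those of Zfp275, Hdac11, Ivd and Dpy19l3 are shown because they hold the CCAAT box, a common promoter element, and because they include both genes with higher HET levels. Capitals mark CCAAT on either strand, so that ATTGG is the reverse-strand match.
Zfp275: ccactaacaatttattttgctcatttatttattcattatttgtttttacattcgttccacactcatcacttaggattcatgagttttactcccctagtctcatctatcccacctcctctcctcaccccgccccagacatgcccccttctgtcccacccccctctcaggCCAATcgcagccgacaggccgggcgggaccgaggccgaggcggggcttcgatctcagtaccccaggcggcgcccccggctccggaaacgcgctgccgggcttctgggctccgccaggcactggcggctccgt
Hdac11: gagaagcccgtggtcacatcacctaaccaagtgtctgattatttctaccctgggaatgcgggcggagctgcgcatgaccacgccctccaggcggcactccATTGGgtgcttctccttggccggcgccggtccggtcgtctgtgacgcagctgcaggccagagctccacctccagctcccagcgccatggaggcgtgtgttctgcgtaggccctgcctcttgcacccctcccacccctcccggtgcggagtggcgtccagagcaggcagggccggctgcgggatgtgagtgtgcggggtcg
Ivd: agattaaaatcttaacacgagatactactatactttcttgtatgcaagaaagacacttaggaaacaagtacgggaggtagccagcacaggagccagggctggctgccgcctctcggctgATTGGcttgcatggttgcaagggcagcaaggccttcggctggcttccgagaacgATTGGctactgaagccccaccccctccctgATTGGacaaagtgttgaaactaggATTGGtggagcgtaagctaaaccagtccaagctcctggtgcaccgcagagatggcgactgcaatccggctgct
Dpy19l3: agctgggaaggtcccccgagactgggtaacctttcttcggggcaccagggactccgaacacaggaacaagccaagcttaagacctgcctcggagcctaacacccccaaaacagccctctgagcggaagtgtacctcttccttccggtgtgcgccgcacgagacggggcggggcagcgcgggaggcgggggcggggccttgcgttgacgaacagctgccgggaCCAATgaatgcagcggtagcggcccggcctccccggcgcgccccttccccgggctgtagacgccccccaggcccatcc
These windows are chrX:73342370-73342669 on the plus strand, chr6:91156565-91156864 on the plus strand, chr2:118861744-118862043 on the plus strand and chr7:35754405-35754704 on the minus strand. Ivd had 4 CCAAT matches, which 1.06% of the 32851 promoters in the table reached, and Zfp275, Hdac11 and Dpy19l3 had 1 each. At least 1 match was present in 4 of the 7 promoters and in 37.4% of all promoters. The core of the TCF/LEF motif, CTTTGA on either strand, was in 0 of the 7 and in 16% of all promoters. The E-box CANNTG was in 5 of 7 against 72.3% of all, and the GC box GGGCGG in 5 of 7 against 35.7%. The GC box consists of G and C only, and these made up 53% (Ivd) to 68% (Dpy19l3) of the 7 windows. The median over all promoters was 52.7%. Matches of different motifs were counted separately even where they overlapped, and a match describes the letters only.

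In HET tumors 8 of the 10 genes had a lower mean than in WT tumors and 2, Zfp275 and Dpy19l3, a higher mean. For 7 of them (Sardh, Zfp275, Nrbp2, Arhgef26, Nsmf, Rnf128 and A530020G20Rik) every HET tumor lay on 1 side of every WT tumor. Among the 14243 genes tested, 1.05% lay wholly lower and 0.534% wholly higher in HET in this way. Over all genes tested 2 (0.014%) were called by limma, both lower in HET, of which 1, A530020G20Rik, is listed here. This contrast chose the genes, so nothing is read from either count. By p-value the genes ranked 2, 3, 4, 6, 7, 8, 12, 26, 33 and 1444 in this contrast. The last is Dpy19l3, so for that gene the data go against the description of a most consistent difference. The list has no numerical threshold. Genes ranked among them but not listed include Cdh19 at rank 1 (4.18 ± 0.47 in HET, 7.70 ± 0.61 in WT), Lgr4 at rank 5 (9.75 ± 0.58 in HET, 11.18 ± 0.36 in WT) and Boc at rank 10 (8.54 ± 0.60 in HET, 10.48 ± 0.31 in WT).

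**Figure D1:**
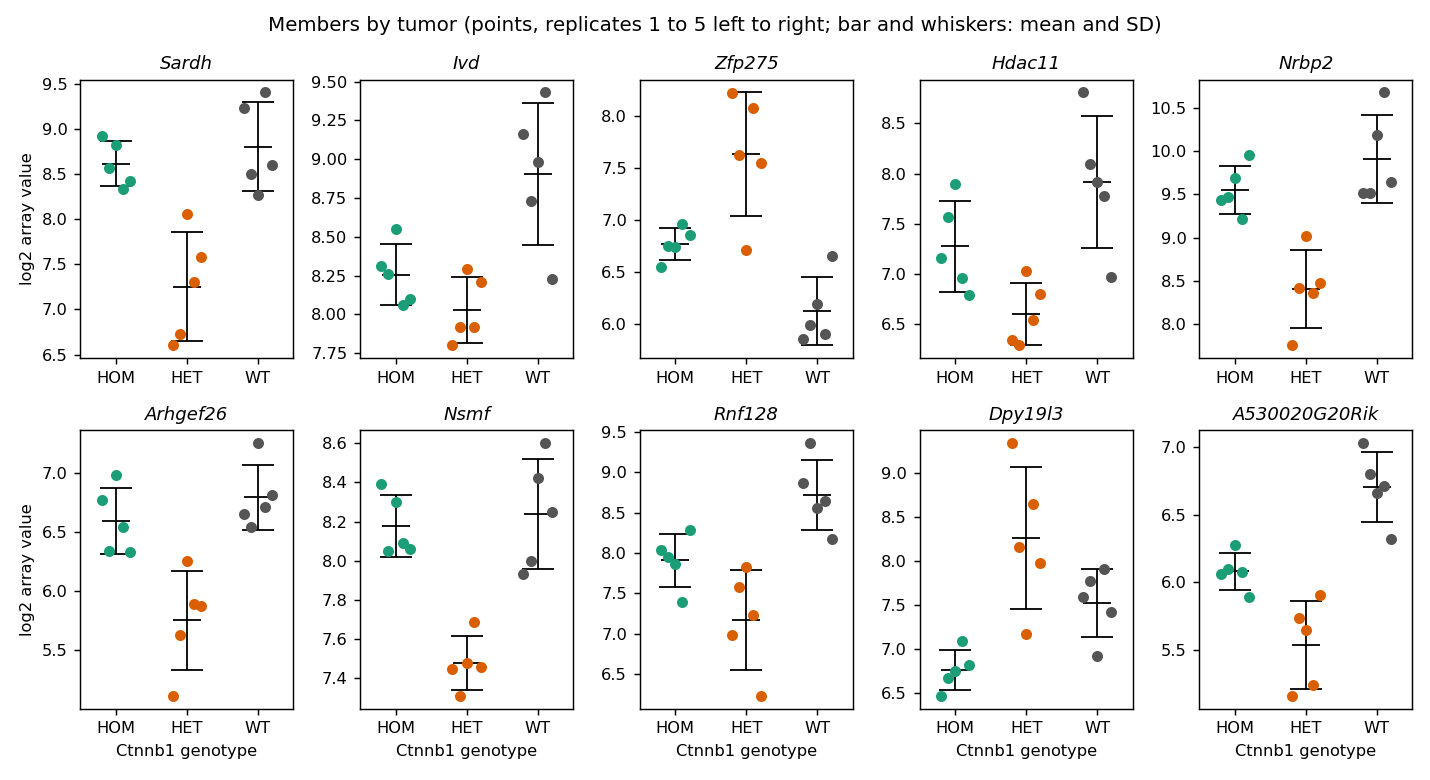
Log2 array values (y axis, own range per panel) of the 10 genes in each HOM, HET and WT tumor (points), with the mean and SD of 5 tumors per genotype. Nsmf and Sardh lie apart in HET, whereas their HOM values fall inside the WT range, and Dpy19l3 is lowest in HOM.

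Sardh (transcript cluster 17383254, chromosome 2, 27188393 to 27248332 in GRCm38.p6) encodes sarcosine dehydrogenase, which turns sarcosine into glycine in the mitochondrial matrix. Its values were 8.93, 8.57, 8.83, 8.34 and 8.43 in HOM tumors, 6.60, 6.73, 8.06, 7.30 and 7.58 in HET tumors, and 9.24, 8.50, 8.27, 9.41 and 8.60 in WT tumors. All 5 HOM tumors lay inside the WT range and above every HET tumor, among which HET 3 was the highest. On average HET lay 2.93-fold below WT. HOM differed from HET by 1.37 on the log2 scale (95% interval 0.76 to 1.97) and from WT by -0.19 (-0.79 to 0.42), neither past the threshold (adjusted p = 0.587 and 1). A second, dimmer Sardh cluster lay below the array median in all 15 tumors and had means of 4.50 ± 0.30 in HOM, 4.40 ± 0.25 in HET and 4.36 ± 0.18 in WT, so the difference was seen in the brighter cluster only. With both clusters averaged, HET minus WT was -0.76 instead of -1.55 and HOM minus HET was 0.73.

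Ivd (cluster 17374648, chromosome 2, 118861959 to 118882909) encodes isovaleryl-CoA dehydrogenase, which acts in leucine breakdown. It was at 8.31, 8.26, 8.55, 8.06 and 8.10 in HOM, 7.80, 7.92, 8.29, 7.92 and 8.21 in HET, and 9.16, 8.73, 8.98, 9.43 and 8.23 in WT tumors. WT 5 was the low WT value and overlapped with both other genotypes, while WT 1 to WT 4 lay above every floxed tumor. On average HET lay 1.84-fold below WT. The HOM mean lay closer to HET than to WT, with HOM minus HET at 0.23 (95% interval -0.19 to 0.64, adjusted p = 0.767) and HOM minus WT at -0.65 (-1.07 to -0.24, adjusted p = 1).

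Zfp275 (cluster 17535535, chromosome X, 73342593 to 73359080) encodes a zinc finger protein. Its levels were 6.55, 6.75, 6.74, 6.96 and 6.86 in HOM, 8.22, 7.62, 6.71, 8.07 and 7.55 in HET, and 5.86, 5.99, 6.20, 5.91 and 6.66 in WT tumors. HET 3 was the lowest HET tumor, next to WT 5, and the other 4 HET tumors lay above every HOM and WT tumor. The mean was 2.85-fold higher in HET than in WT. HOM was intermediate, with HOM minus HET at -0.86 (95% interval -1.38 to -0.35, adjusted p = 0.587) and HOM minus WT at 0.65 (0.13 to 1.16, adjusted p = 1).

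Hdac11 (cluster 17460879, chromosome 6, 91156670 to 91174692) encodes a histone deacetylase that also removes fatty acyl groups from lysines. Its values were 7.16, 7.57, 7.90, 6.96 and 6.79 in HOM, 6.34, 6.29, 7.03, 6.54 and 6.80 in HET, and 8.81, 8.10, 7.92, 7.78 and 6.97 in WT tumors. HET and WT overlapped through HET 3 and WT 5, and HOM overlapped with both. The HET mean was 2.49-fold below the WT mean, and HOM differed by 0.68 from HET (95% interval 0.04 to 1.31, adjusted p = 0.603). A second cluster of the gene did not follow, with 6.48 ± 0.08 in HOM, 6.46 ± 0.21 in HET and 6.29 ± 0.14 in WT. Its HET mean was the higher of that pair, by 0.17, so the 2 clusters differ in sign. The mean of both gave -0.57 for HET minus WT instead of -1.32, and 0.34 for HOM minus HET.

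Nrbp2 (cluster 17318312, chromosome 15, 76085515 to 76091690) encodes a pseudokinase known from survival of neural progenitors in mice. It was at 9.43, 9.47, 9.69, 9.22 and 9.95 in HOM, 7.75, 8.42, 9.02, 8.36 and 8.47 in HET, and 9.51, 9.52, 10.19, 10.68 and 9.64 in WT tumors. All HET tumors lay below all others, with HET 1 the lowest and HET 3 the highest. The HET mean was 2.84-fold below the WT mean, and HOM minus HET was 1.15 (95% interval 0.60 to 1.70, adjusted p = 0.587). HOM differed from WT by -0.36 (-0.91 to 0.19), a difference that was -0.16 without WT 4.

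Arhgef26 (cluster 17397968, chromosome 3, 62338777 to 62462221) encodes an exchange factor that activates the small GTPase RhoG. Its values were 6.77, 6.34, 6.98, 6.54 and 6.33 in HOM, 5.11, 5.63, 6.25, 5.89 and 5.87 in HET, and 6.65, 6.54, 7.25, 6.71 and 6.81 in WT tumors. HET tumors again lay below all others, HET 3 by the smallest margin. HET averaged 2.06-fold below WT, and HOM minus HET was 0.84 (95% interval 0.41 to 1.28, adjusted p = 0.587). HOM minus WT was -0.20 (-0.64 to 0.24). A second cluster had means of 5.88 ± 0.29 in HOM, 5.74 ± 0.11 in HET and 5.95 ± 0.11 in WT, the same order with a smaller HET minus WT difference of -0.21. With both clusters averaged, HET minus WT was -0.63 instead of -1.04 and HOM minus HET was 0.49 instead of 0.84.

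Nsmf (cluster 17367807, chromosome 2, 25054361 to 25062881) encodes a protein that carries signals from NMDA receptors to the nucleus in neurons. It was at 8.39, 8.05, 8.30, 8.09 and 8.06 in HOM, 7.45, 7.31, 7.48, 7.69 and 7.46 in HET, and 7.93, 8.0, 8.42, 8.60 and 8.25 in WT tumors. HOM lay wholly inside the WT range, and all HET tumors below both. The spread was small, with an SD of 0.14 in HET, so a 1.70-fold lower HET mean separated the groups. HOM minus HET was 0.70 (95% interval 0.41 to 0.99, adjusted p = 0.587) and HOM minus WT was -0.06 (-0.35 to 0.23, adjusted p = 1).

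Rnf128 (cluster 17538096, chromosome X, 139563340 to 139673145) encodes a membrane-bound ubiquitin ligase known from T cell anergy. Its levels were 8.04, 7.95, 7.87, 7.40 and 8.28 in HOM, 6.98, 7.58, 7.83, 7.23 and 6.23 in HET, and 8.86, 9.36, 8.56, 8.64 and 8.17 in WT tumors. HOM 4 overlapped with HET and HOM 5 with WT, and the other 3 HOM tumors lay between the genotypes. HET averaged 2.92-fold below WT. HOM differed by 0.74 from HET (95% interval 0.13 to 1.35, adjusted p = 0.587) and by -0.81 from WT (-1.42 to -0.20, adjusted p = 1).

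Dpy19l3 (cluster 17489824, chromosome 7, 35685500 to 35754460) encodes an enzyme of the endoplasmic reticulum that attaches mannose to tryptophan in proteins with thrombospondin repeats. It was at 6.46, 6.67, 6.75, 7.09 and 6.81 in HOM, 9.34, 8.16, 7.17, 8.65 and 7.98 in HET, and 7.59, 7.77, 6.92, 7.91 and 7.42 in WT tumors. HET and WT overlapped through HET 3, whereas all HOM tumors lay below all HET tumors. The HET mean was 1.67-fold above the WT mean, and the HOM mean was 0.77 below it on the log2 scale (95% interval of HOM minus WT -1.44 to -0.09). The means of the 2 floxed genotypes thus lay on opposite sides of WT. Neither difference passed the threshold, and HOM 4 (7.09) lay inside the WT range. HOM minus HET was -1.51 (95% interval -2.18 to -0.83), the fifth smallest p of that comparison, and did not pass adjustment (adjusted p = 0.587). The HET minus WT difference was 1.01 without HET 3 and 0.47 without HET 1, instead of 0.74.

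A530020G20Rik (cluster 17402165, chromosome 3, 121532944 to 121536207) is an uncharacterised long noncoding RNA gene. Its values were 6.06, 6.10, 6.28, 6.08 and 5.89 in HOM, 5.16, 5.74, 5.65, 5.24 and 5.91 in HET, and 7.03, 6.80, 6.66, 6.71 and 6.32 in WT tumors. It was the only one of the 10 with HOM wholly below WT, which 0.169% of genes tested showed, and HOM and HET overlapped only through HOM 5 and HET 5. HET averaged 2.23-fold below WT. HOM minus HET was 0.54 (95% interval 0.19 to 0.89, adjusted p = 0.587) and HOM minus WT was -0.62 (-0.97 to -0.27, adjusted p = 1). It lay above the array median of all clusters in 13 of 15 tumors.

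**Figure D2:**
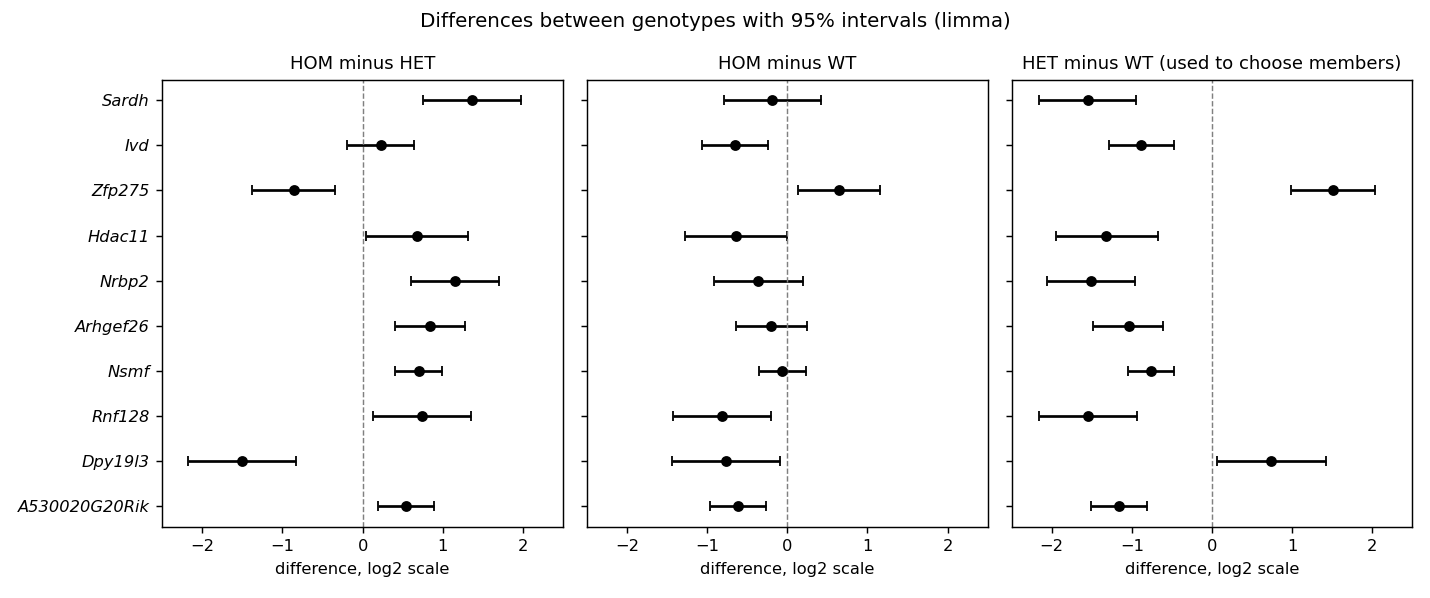
Log2 differences between genotypes (x axis) with 95% intervals from the limma fit for the 10 genes. The HOM minus WT intervals of Sardh, Nrbp2, Arhgef26 and Nsmf include 0, and Dpy19l3 is the gene whose HET minus WT and HOM minus WT differences have opposite signs.

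The homozygous tumors were thus not uniformly placed. Taken as a share of the way from the WT mean to the HET mean, the HOM mean stood at 8.13% for Nsmf, 12% for Sardh, 19.1% for Arhgef26 and 23.6% for Nrbp2. It stood at 42.9% for Zfp275, 48.6% for Hdac11, 52.4% for Rnf128, 53.4% for A530020G20Rik and 74.2% for Ivd. For Dpy19l3 it was -104%, beyond WT on the other side. The low shares rest on small HOM minus WT differences that single tumors move. That of Sardh ran from -0.32 without WT 3 to -0.035 without WT 4, and that of Arhgef26 from -0.30 without HOM 3 to -0.085 without WT 3. For Nrbp2 it ran from -0.46 without WT 1 to -0.16 without WT 4, and for Nsmf from -0.14 without WT 1 to 0.029 without WT 4. HOM and HET tumors did not overlap for 5 of the 10 genes: Sardh, Nrbp2, Arhgef26 and Nsmf were higher in HOM, against 0.611% of genes tested, and Dpy19l3 lower, against 0.414%. No gene was called between HOM and HET or between HOM and WT (limma, 0% of 14243 genes in both). At an unadjusted p under 0.05 there were 9 of the 10 genes for HOM against HET (7.93% of all genes) and 6 for HOM against WT (1.7%). Each of these comparisons shares its HET or WT tumors with the contrast that chose the genes, so these counts are not independent of the choice.

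Single tumors held the same places across many of the genes. HET 3, the tumor with skeletal muscle markers, was the HET tumor nearest to WT for 8 of the 10, all but Nsmf and A530020G20Rik. HET 1, with the low epithelial and high B cell markers, was the farthest from WT for 7. WT 5, the tumor whose Ctnnb1 level fell among HOM tumors, was the WT tumor nearest to HET for 5 (Ivd, Zfp275, Hdac11, Rnf128 and A530020G20Rik). Without HET 3, all 10 genes separated HET from WT, where 3.83% of all genes then did, instead of 7. Without HET 1 the number was 7 (2.56% of all genes), and without both it was 10 (5.75%). These counts come from the contrast that chose the genes, and nothing is read from them. Without WT 5 and HOM 5, 9 genes separated HET from WT (3.58% of all genes). For HOM against WT the number was 4 (3.04% of all genes), instead of 1 (0.281%) with all tumors, so the share of all genes rose as well. Cell type marker levels are given beside these places, with no test. The mean of 8 leukocyte markers was 9.64 ± 0.49 in HOM (8.94 to 10.19), 10.01 ± 0.56 in HET (9.18 to 10.48) and 9.41 ± 0.60 in WT (8.42 to 9.90). For 10 neutrophil markers it was 8.0 ± 1.13 in HOM, 9.54 ± 1.41 in HET and 6.98 ± 0.70 in WT, and for 10 epithelial markers 11.06 ± 0.34 in HOM, 10.33 ± 1.29 in HET and 10.91 ± 0.43 in WT. The leukocyte ranges of the genotypes overlap, and apart from HET 1 the epithelial means of HET tumors were 10.06 to 11.56, beside 10.20 to 11.26 in WT tumors. The neutrophil means were 7.0 to 9.41 in HOM, 7.73 to 10.92 in HET and 6.02 to 7.87 in WT. Those of HET and WT met only through HET 5 (7.73) and WT 5 (7.87). All of these markers lay above the low-signal filter, and their part in the differences of the 10 genes was not tested beyond the covariate values below. In whole tumors, fewer cells of a type and less RNA per cell cannot be told apart.

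Variation inside the genotypes was described by the deviation of each tumor from its genotype mean (15 tumors, Pearson r, with all points sharing the same arrays). A consistent difference depends on the spread inside HET and WT, so this variation is not independent of the choice. Hdac11 followed leukocyte markers inversely (r = -0.85, and -0.86 without HET 1 and HET 3), as did A530020G20Rik (-0.71 and -0.75), Sardh (-0.74 and -0.63) and Ivd (-0.65 and -0.60). Zfp275 ran with them (0.72 and 0.62). Nrbp2, Nsmf, Arhgef26 and Rnf128 did not follow them closely, with r between -0.30 and 0.25. Dpy19l3 had r = 0.41 with leukocyte markers, and 0.02 without HET 1 and HET 3. The values are not particular to leukocyte markers. For A530020G20Rik they were -0.79 and -0.84 with fibroblast markers, and -0.79 and -0.82 with macrophage markers. With neutrophil markers they were -0.65 and -0.56 for Sardh, -0.63 and -0.59 for A530020G20Rik, and -0.62 and -0.51 for Arhgef26. Ivd (-0.59 and -0.53) and Hdac11 (-0.58 and -0.53) also ran against them, and Zfp275 with them (0.53 and 0.39). Rnf128 had 0.31 and 0.57, Dpy19l3 0.41 and 0.13, Nrbp2 -0.19 and 0.09, and Nsmf -0.18 and -0.18. Neutrophil markers were not used as a covariate. With leukocyte and fibroblast marker means as covariates, the HET minus WT difference was -0.84 for Hdac11 instead of -1.32, -1.11 for Sardh instead of -1.55, 1.15 for Zfp275 instead of 1.51 and -0.79 for Nsmf instead of -0.76. Rnf128 moved from -1.55 to -1.17, Dpy19l3 from 0.74 to 0.50 and Ivd from -0.88 to -0.65. Nrbp2 moved from -1.51 to -1.34, Arhgef26 from -1.04 to -0.91 and A530020G20Rik from -1.16 to -1.04. With epithelial markers as the covariate the values were -1.25 for Hdac11, -1.35 for Sardh, 1.36 for Zfp275 and -0.74 for Nsmf, and that of Dpy19l3 was 0.47 instead of 0.74. Those of the other genes were -1.62 for Rnf128, -1.36 for Nrbp2, -0.88 for Arhgef26, -0.80 for Ivd and -1.05 for A530020G20Rik. Epithelial markers had r = 0.67 with Arhgef26 and -0.71 with Dpy19l3, which were 0.32 and -0.39 without HET 1 and HET 3. For Rnf128 that value was -0.23, and -0.77 without them.

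**Figure D3:**
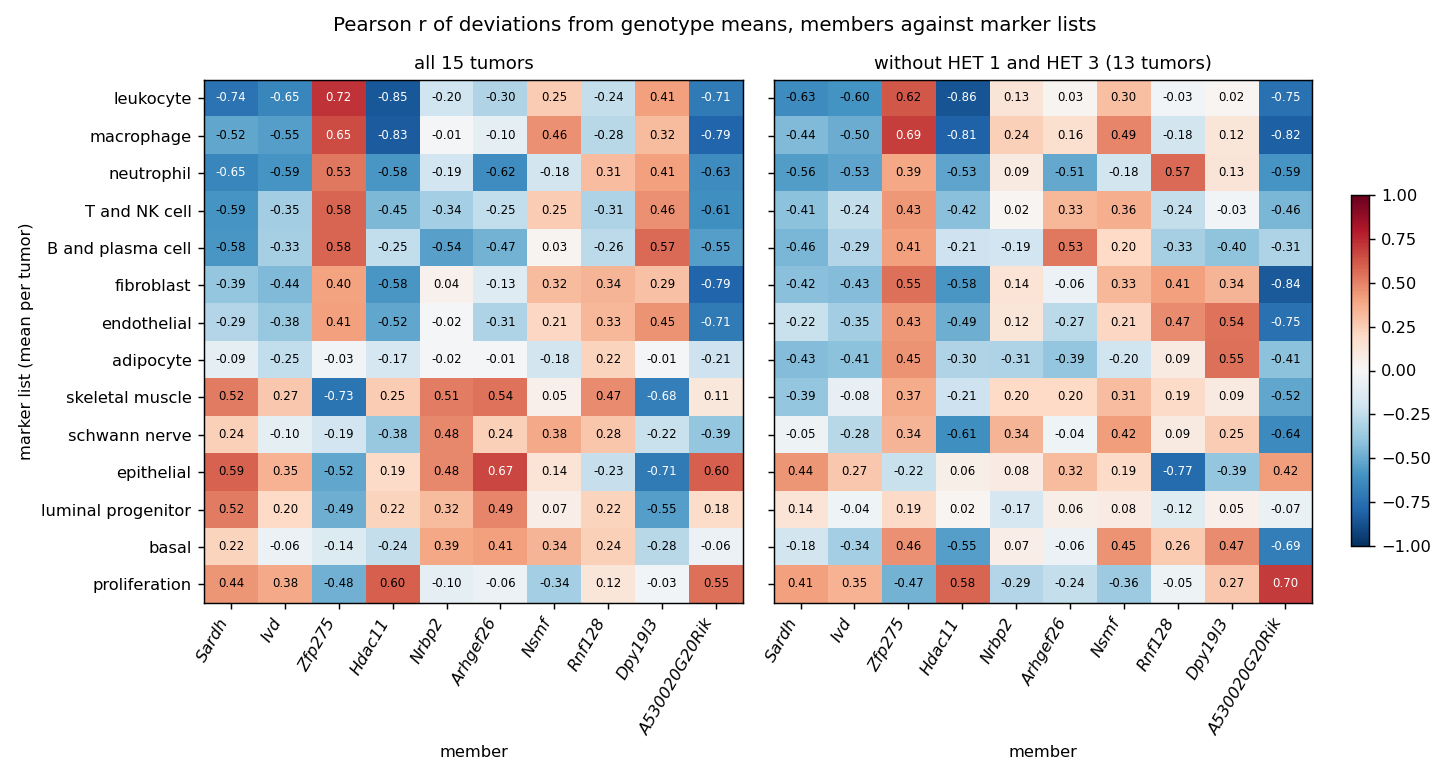
Pearson r between deviations from the genotype mean of the 10 genes (columns) and of 14 marker lists (rows), over 15 tumors and without HET 1 and HET 3. Hdac11 with leukocyte markers is at -0.85 and -0.86, while Zfp275 with skeletal muscle markers is at -0.73 over all tumors and 0.37 without these 2.

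Among the genes themselves, the closest pairs inside genotypes were Hdac11 with Ivd (r = 0.72, 15 tumors), A530020G20Rik with Hdac11 (0.71) and Sardh with Ivd (0.69). They stood at 0.69, 0.75 and 0.66 without HET 1 and HET 3. Zfp275 with Dpy19l3, the pair higher in HET, had r = 0.68, which was 0.11 without these tumors. The most opposite pairs over 15 tumors were Arhgef26 with Dpy19l3 (-0.78) and Zfp275 with Sardh (-0.72), which were -0.51 and -0.46 without these tumors. The most opposite were then A530020G20Rik with Zfp275 (-0.83) and Zfp275 with Ivd (-0.77). Across all genes tested, Hdac11 was most like Mrrf, which encodes a mitochondrial ribosome recycling factor (0.94). It was most unlike Fcer1g, an Fc receptor subunit of leukocytes (-0.90), which was named after its value was seen and is also on the leukocyte list. A530020G20Rik was most like Rab3d, a small GTPase of secretory vesicles (0.92), Ybey (0.92) and Coq6, an enzyme of ubiquinone synthesis (0.91). Sardh was most like Kdm8 (0.92), Abhd14a (0.91) and Akr7a5 (0.90). Zfp275 was most like Lat2, a leukocyte adaptor (0.90), Nrbp2 like Gng7 (0.87), Nsmf like Ace (0.88), Rnf128 like Slc38a8 (0.88), Arhgef26 like R3hdm4 (0.89), Ivd like E030013I19Rik (0.85) and Dpy19l3 like Klhl22 (0.91). These are the highest values over all tested genes and are given as a ranking.

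The other genes of each pathway or family were examined for whether they moved with the listed gene, in 9 lists. None of the 99 genes tested in them passed in any comparison (limma, 0 higher and 0 lower). At an unadjusted p under 0.05 there were 25 for HET against WT (25.3%, beside 13.4% of all genes), 14 for HOM against HET (14.1%, beside 7.93%) and 1 for HOM against WT (1.01%, beside 1.7%). The HET against WT share differed by list. It was 45% for branched-chain amino acid breakdown, 37.5% for ligases related to Rnf128 and 36.4% for ETF-linked genes. Choline, glycine and folate enzymes had 26.7% and NMDA receptor genes and partners 25%. The RhoG pathway had 13.3%, pseudokinases 12.5%, and histone deacetylases and C-mannosylation 10% each.

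Of 20 other tested genes of branched-chain amino acid breakdown, the pathway of Ivd, 18 had a lower mean in HET than in WT (median difference -0.39), against 54.5% of all genes tested (median -0.03). The smallest p was that of Mccc1, a subunit of the carboxylase that acts after Ivd, with 7.02 ± 0.33 in HET tumors against 7.71 ± 0.25 in WT tumors (limma, adjusted p = 0.224). Pccb, a subunit of propionyl-CoA carboxylase, followed with 8.59 ± 0.33 in HET tumors against 9.32 ± 0.50 in WT tumors (adjusted p = 0.238). The exceptions, named after their values were seen, were Bcat1 and Ppm1k. Bcat1, the cytosolic aminotransferase that starts the pathway, had 7.35 ± 1.33 in HET tumors against 6.33 ± 0.34 in WT tumors (adjusted p = 0.397), and Ppm1k, which activates the branched-chain ketoacid dehydrogenase, 8.30 ± 0.25 in HET against 8.23 ± 0.38 in WT. In HOM minus HET, 16 of the 20 had a higher mean (median 0.22, against 0.01 for all genes).

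Of 11 other tested ETF-linked dehydrogenases and ETF components, 10 had a lower mean in HET than in WT (median -0.38), and all 11 had a higher mean in HOM than in HET (median 0.28). Gcdh, of lysine and tryptophan breakdown, had 8.28 ± 0.36 in HET tumors against 8.94 ± 0.57 in WT tumors (adjusted p = 0.348). Acads, of short-chain fatty acid oxidation, had 9.61 ± 0.29 in HET tumors against 10.02 ± 0.30 in WT tumors (adjusted p = 0.349). Acad8 and Acadsb stand in both of these lists, and the comparisons of HOM and of WT share the HET tumors. Without HET 1 and HET 3 the counts lower in HET were 19 of 20 and 10 of 11 (medians -0.47 and -0.48). Without WT 5 and HOM 5 they were 18 of 20 and 10 of 11 (medians -0.39 and -0.40).

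Choline, glycine and folate enzymes around Sardh had 10 of 15 lower in HET (median -0.19). Among them Aldh1l1, a folate dehydrogenase, had 8.46 ± 1.05 in HET tumors against 6.97 ± 0.78 in WT tumors (adjusted p = 0.238). Amt, of the glycine cleavage system, differed the other way, with 6.92 ± 1.28 in HET tumors against 8.59 ± 0.78 in WT tumors (adjusted p = 0.242).

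Membrane ubiquitin ligases related to Rnf128 had 7 of 8 lower in HET (median -0.21), and 6 of 8 without HET 1. Rnf43 and Znrf3, which remove Wnt receptors from the cell surface, led them. Rnf43 had 8.01 ± 0.98 in HET tumors against 9.60 ± 0.78 in WT tumors (adjusted p = 0.224), and Znrf3 7.95 ± 0.45 in HET against 8.92 ± 0.91 in WT (adjusted p = 0.29).

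The remaining families were closer to an even split. Of 10 other histone deacetylases 5 had a lower HET mean (median -0.02), with Hdac3 at 11.60 ± 0.22 in HET tumors against 11.86 ± 0.08 in WT tumors (adjusted p = 0.363) and Hdac4 at 9.14 ± 0.32 in HET against 8.82 ± 0.32 in WT (adjusted p = 0.439). In the RhoG pathway 8 of 15 were lower (median -0.14). Dock1, an exchange factor for Rac, had 9.39 ± 0.28 in HET tumors against 9.87 ± 0.37 in WT tumors (adjusted p = 0.36), and Rhog, the GTPase itself, 10.56 ± 0.38 in HET against 9.99 ± 0.53 in WT (adjusted p = 0.37). Pseudokinases had 3 of 8 lower (median 0.03), among them Trib3 with 7.59 ± 0.32 in HET tumors against 8.44 ± 0.85 in WT tumors (adjusted p = 0.304). Nrbp1, the close relative of Nrbp2, had 11.55 ± 0.12 in HET against 11.39 ± 0.10 in WT (adjusted p = 0.456).

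For C-mannosyltransferases and their substrates 4 of 10 were lower (median 0.08). Dpy19l1, a relative of Dpy19l3, had 9.58 ± 0.63 in HET tumors against 8.91 ± 0.45 in WT tumors (adjusted p = 0.341), and Unc5c, a netrin receptor, 5.94 ± 0.32 in HET against 6.57 ± 0.76 in WT (adjusted p = 0.395). Of the NMDA receptor genes and their partners only 4 were tested, of which 2 were lower (median -0.04). They include Kpna1, a nuclear import receptor, with 9.36 ± 0.14 in HET against 9.06 ± 0.19 in WT (adjusted p = 0.293), and the receptor subunit Grin2d, with 5.88 ± 0.21 in HET against 6.06 ± 0.16 in WT (adjusted p = 0.519).

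**Figure D4:**
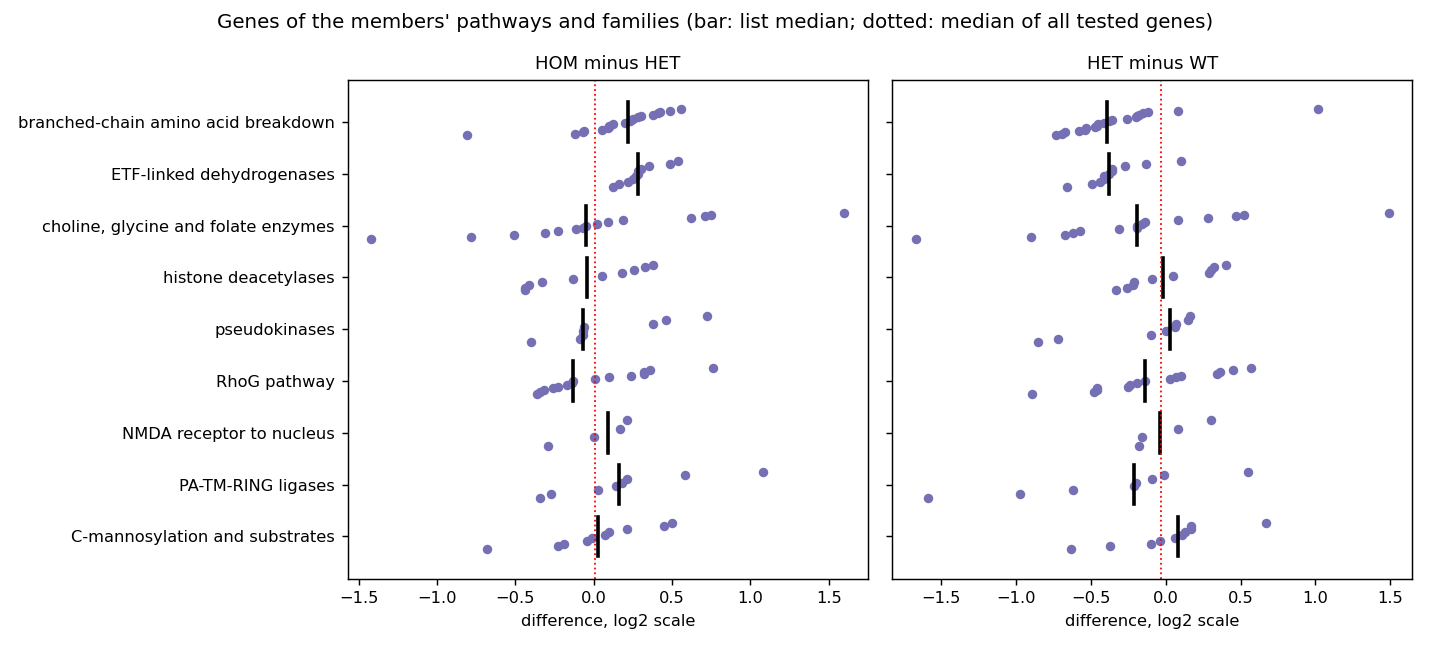
Log2 differences (x axis) of each tested gene in 9 lists around the members, for HOM minus HET and HET minus WT, with list medians (bars) and the median of all genes tested (dotted line). Branched-chain amino acid and ETF-linked genes have medians of 0.22 and 0.28 in HOM minus HET, and -0.39 and -0.38 in HET minus WT.

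The neighbouring genes on the chromosome were compared in the same fit, taking 3 on each side of every listed gene. Of 60 neighbours 41 were tested. None passed in HET minus WT (limma, smallest adjusted p = 0.242), and 6 (14.6%) had an unadjusted p under 0.05, against 13.4% of all genes. Slc44a3, which belongs to the choline transporter-like family and lies 73.4 kb from A530020G20Rik, had 8.66 ± 1.79 in HET tumors against 10.70 ± 0.53 in WT tumors (adjusted p = 0.242). F8a, 114 kb from Zfp275, had 6.08 ± 0.26 in HET against 5.62 ± 0.23 in WT (adjusted p = 0.242). Rap2b, a small GTPase gene 974 kb from Arhgef26, had 7.92 ± 0.47 in HET against 7.34 ± 0.22 in WT (adjusted p = 0.276). Zmynd19, 105 kb from Nsmf, had 8.55 ± 0.30 in HET against 9.02 ± 0.34 in WT (adjusted p = 0.292). The smallest adjusted p among the neighbours of the other 6 genes was 0.386, next to Nrbp2. Nsmf and Sardh lie 2130 kb apart on chromosome 2. Of 67 genes tested between them, a stretch chosen after the values were seen, 49 (73.1%) had a lower mean in HET (median -0.21). Over all genes tested the share was 54.5% (median -0.03). An unadjusted p under 0.05 was found for 12 of the 67, beside 13.4% of all genes, and 0 were called.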

How the data were processed

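The authors deposited 41345 transcript clusters with a log2 intensity for each of 15 arrays. The log2 scale was taken from the values, which ran from 1.06 to 13.9. The tools were Affymetrix Expression Console and Transcriptome Analysis Console, per the submitters' processing notes. The background correction and the normalization behind them are not stated in those notes, so neither could be redone. Arrays count 5 per genotype, which limits the precision, and no scan date was given. Clusters were named through the platform annotation, 23521 with 1 gene symbol. Of several clusters the brightest was kept (22180 genes), and a gene was tested when above the array median on at least 5 arrays (14243 genes, all 10 listed genes included).

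One limma model (limma 3.58.1, R 4.3.3) held all 3 genotypes (two-sided, 12 residual degrees of freedom, Benjamini-Hochberg adjustment, threshold 0.05). All adjusted p-values are from it. On simulated data for HOM against HET over 14243 genes the fit recovered 58 of 100 genes changed by 1 and 92 of 100 changed by 2 on the log2 scale, with 7 false calls among 157. These shares describe the simulated data and need not carry over to these tumors. Here Cdh19 had a HOM minus HET difference of 1.86 and was not called (limma, adjusted p = 0.587). Genes not called are therefore not shown to be unchanged. Named were the 10 genes, Ctnnb1, Erbb2, the genes most like each of the 10, the 2 genes with the smallest p per list, the leading neighbours, and others as stated. The members, lists and tests were chosen with earlier results of these data known. Alternatives were other filters, renewed normalization, centring, averaged clusters, other moderation, array weights, marker covariates and tumors left out (closing section).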

Additional observations from a re-analysis of the deposited data

How the results depend on the processing

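Settings that could move a mean were renewed quantile normalization, median centring, averaged clusters, array weights, marker covariates and tumors left out of a genotype compared. Under these the differences of the 10 genes kept their direction in all 3 comparisons, except Nsmf in HOM minus WT, which was -0.06 and ranged from -0.14 without WT 1 to 0.029 without WT 4. The filters, trend and robust moderation and the fit of only 2 genotypes leave a difference of means as it is and bear on the calls alone, and a filter at the 75th percentile removed A530020G20Rik, Zfp275, Arhgef26 and Hdac11. None of the 10 passed in HOM minus HET or HOM minus WT under any setting that tested it. Genes called in HET minus WT numbered 2, Cdh19 and A530020G20Rik, and 0 with array weights. The count was also 0 with the 75th percentile filter. That filter left both genes untested, as Cdh19 too exceeded it on fewer than 5 arrays, so its 0 does not bear on their calls. There was 1 with renewed quantile normalization, with only the 2 genotypes compared and with leukocyte and fibroblast covariates. The call of A530020G20Rik, in the contrast that chose it, was lost with renewed quantile normalization, array weights, only 2 genotypes, without HET 1 and HET 3, and with any 1 tumor left out other than WT 5, HET 3 or HET 5 (adjusted p = 0.016 to 0.412 over the settings that tested it). With 1 tumor left out the count ranged from 1 to 48, with 48 without HET 3 and 18 without HET 5, and it was 10 without HET 1 and HET 3. The count for HOM minus HET was 0, ranged from 0 to 3 with 1 tumor left out (1 without HET 3, 3 without HET 5), and was 1 without HET 1 and HET 3 and 6 without WT 5 and HOM 5. For HOM minus WT it was 0 with each tumor left out and 4 without WT 5 and HOM 5. These pairs were chosen after seeing the data, and the cause of these changes was not tested. No paired analysis was possible because the labels carry no replicate numbers that join tumors of different genotypes.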
